A study of Mus musculus with 6 samples.

Results

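Expression of 34 genes for lysosomal hydrolases and membrane proteins was examined in whole mouse ovaries with and without Galt. The genes were a list of symbols matched to Ensembl identifiers (GENCODE M21, build GRCm38), and all 34 were found among the 55487 genes of the count table. All 34 also passed the low-count filter that left 16957 genes for testing, with 176 to 99664 counts per gene and library. The list was drawn up by function, with no cut on measured values but with earlier results of these data known. Total RNA was sequenced from 3 wildtype and 3 GalTKO ovary samples, the latter from mice with the GalT-/- genotype, which removes galactose-1-phosphate uridylyltransferase of the Leloir pathway of galactose breakdown. Both genotypes carried the strain label cbl/6-ola/129, were weaned onto food holding 2.5% galactose, eaten over 4 weeks, and were sampled at postnatal day 49. No wildtype or GalTKO ovaries on ordinary food were analysed here, so genotype was compared on the galactose diet alone. The labels do not say whether each sample was 1 animal or a pool, and the p-values below reflect only how far these 3 and 3 samples scatter, which may be partly technical.

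Lysosomes are acidic organelles in which hydrolases break down glycolipids, glycosaminoglycans, glycogen, glycoproteins and proteins. Most soluble lysosomal enzymes carry a mannose 6-phosphate tag that sorts them to the organelle, a proton pump (the V-ATPase) acidifies it, and heavily glycosylated membrane proteins line it. The transcription factor TFEB, held in the cytosol when the kinase complex mTORC1 is active on the lysosome surface, switches on many of these genes through a promoter sequence called the CLEAR element. In the ovary, lysosomes are prominent in macrophages and in steroid-making luteal cells, where they take part in cholesterol handling and tissue regression.

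The targeted gene separated the groups. Galt (chr4:41755228-41758695) stood at 17.8, 16.1 and 17.4 CPM (the read count relative to the library total, after scaling for library composition) in wildtype libraries 1, 2 and 3. In GalTKO libraries 1, 2 and 3 it was at 0.155, 0.259 and 0 CPM, a log2 fold change of -6.82 ± 0.41 (SE; adjusted p = 0.000153 by the quasi-likelihood test of edgeR with Benjamini-Hochberg correction). Library totals ran from 19232486 to 25729564 counts. Summed markers of luteal cells (9603 to 23268 CPM), granulosa cells (5131 to 6193 CPM) and oocytes (293 to 446 CPM) were present in every library, whereas 4 neutrophil markers summed to at most 1.08 CPM. Oviduct markers summed to 21.6 CPM in wildtype 2, of which Ovgp1, an oviduct secretory glycoprotein, made up 20.3 CPM, and to at most 1.4 CPM elsewhere. GalTKO 2 stood apart from the other GalTKO libraries. In it Cyp17a1, the androgen-making enzyme of theca cells, was at 7.29 CPM against 119 to 399.7 CPM in the other 5 libraries (a gene singled out after its values were seen), although the 5 theca markers together summed to 2425 CPM in GalTKO 2 and 1751 to 2183 CPM elsewhere. Stromal markers summed to 5356 CPM in GalTKO 2 against 2770.2 to 4072 CPM elsewhere. Results are therefore given with and without GalTKO 2.

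Between genotypes, 2 of the 34 lysosomal genes passed an adjusted p of 0.05. Asah1, for acid ceramidase, fell to 0.594 of the wildtype level, and Ppt1, for palmitoyl-protein thioesterase 1, rose 1.48-fold. The 2 genes are 5.88% of the list, beside 2.55% of all tested genes called in either direction, 1.43% called lower and 1.13% called higher. An unadjusted p under 0.05 was reached by 6 members (17.6%), near the 17.1% of all tested genes. Of the 34 log2 fold changes, 24 were negative and 10 positive, with a median of -0.09 and a range of -0.75 to 0.56. Over all tested genes the median was 0.02, and 46.6% were negative. All 3 GalTKO libraries lay below all 3 wildtype libraries for 7 members (12% of all tested genes did so) and above them for 1 member (11.8% of all tested genes). The other 26 members overlapped between the groups. In whole ovary, a lower level can mean fewer cells of a type or less RNA per cell, and the 2 cannot be told apart.

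**Figure D1:**
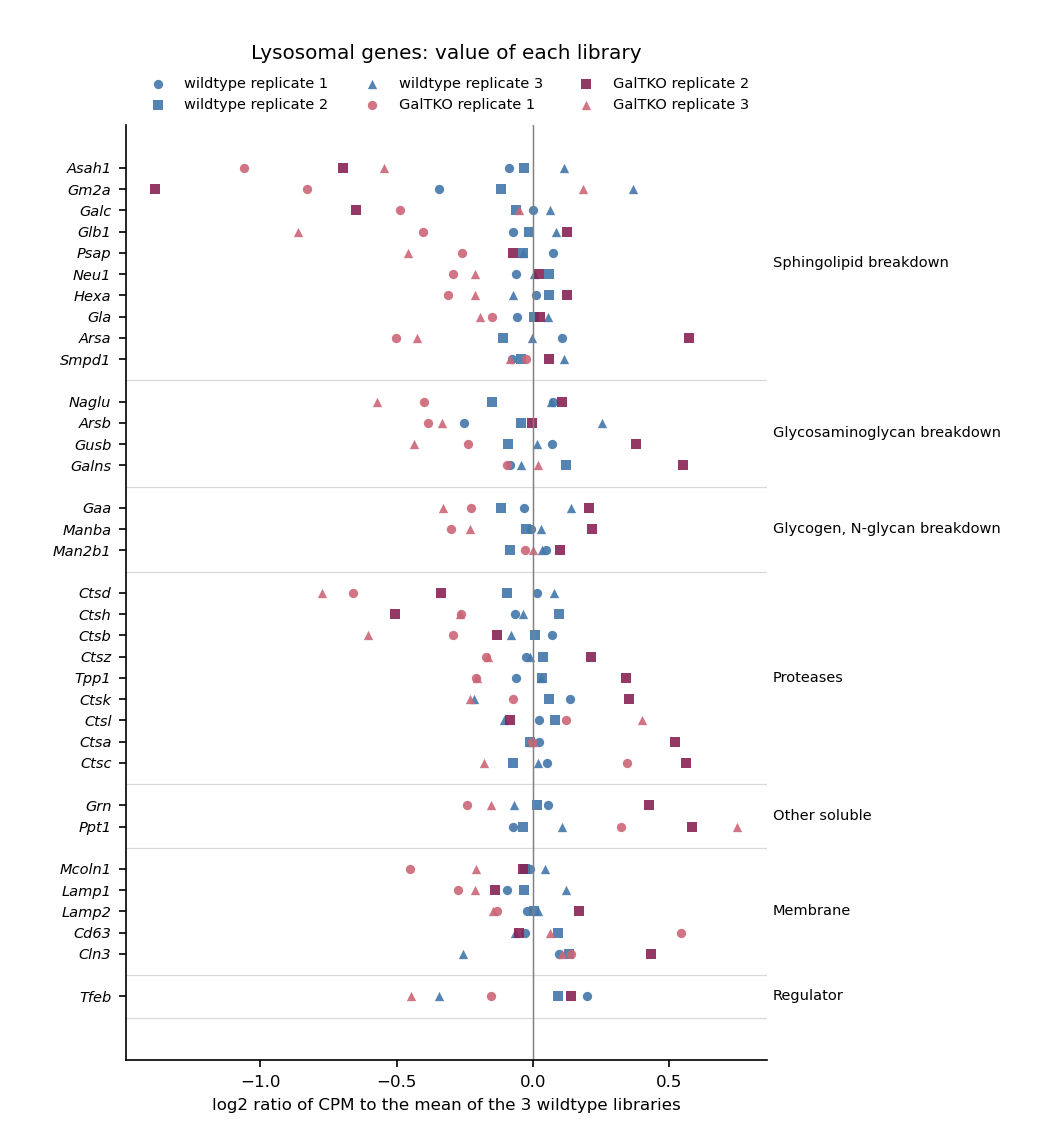
Level of each of the 34 lysosomal genes in each of the 6 libraries, as the log2 ratio of CPM to the mean of the 3 wildtype libraries, with genes arranged by role. The median over the members was -0.24, 0.12 and -0.20 in GalTKO 1, 2 and 3, so GalTKO 2 lies on the other side of the wildtype mean from its 2 fellow replicates for many genes.

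The 10 members that act on sphingolipids all had negative log2 fold changes (median -0.21), and 1 of them, Asah1, passed the test. The signs of Smpd1 and Arsa, both near 0, were not stable: Smpd1 turned positive with upper-quartile scaling, with voom and without wildtype 3 or GalTKO 3, and Arsa without wildtype 1, GalTKO 1 or GalTKO 3 (up to 0.16). Asah1 (ENSMUSG00000031591, chr8:41340197-41374773, minus strand) encodes acid ceramidase, which splits ceramide into sphingosine and a fatty acid. Its level was 191, 199 and 219 CPM in wildtype and 97.4, 125 and 139 CPM in GalTKO, in the order of the replicates. All 3 GalTKO libraries lay below all 3 wildtype libraries, with means of 203 ± 14.8 and 121 ± 21.2 CPM (SD, n = 3 each). The log2 fold change was -0.75 ± 0.13 (SE; 95% interval -1.06 to -0.45; edgeR adjusted p = 0.028), a fall to 0.594 of wildtype with an interval of 0.481 to 0.733. It was -0.78 without GalTKO 2 (edgeR adjusted p = 0.0331). The call was lost when any 1 wildtype library was left out: without wildtype 1, 2 or 3 the edgeR adjusted p was 0.0794, 0.103 and 0.103, with every estimate between -0.87 and -0.62.

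Among the enzymes that remove sugars or sulfate from glycolipids, several separated GalTKO 2 from GalTKO 1 and 3. Glb1 (chr9:114401076-114474898), β-galactosidase, which releases galactose from GM1 ganglioside and keratan sulfate, stood at 66.5, 69.3 and 74.1 CPM in wildtype and at 52.8, 76.4 and 38.5 CPM in GalTKO. GalTKO 1 and 3 were below every wildtype library and GalTKO 2 was above every one. The log2 fold change of -0.32 ± 0.23 missed the threshold (edgeR adjusted p = 0.529), while without GalTKO 2 it was -0.61 ± 0.14 (edgeR adjusted p = 0.0484). With 1 library left out at a time, Glb1 passed only in that fit. Estimates of these fits ran from -0.61 to -0.12, with edgeR adjusted p up to 0.778. Hexa, the α subunit of β-hexosaminidase, had the same arrangement of libraries at 128, 132 and 121 CPM in wildtype and 102, 138 and 109 CPM in GalTKO. Arsa, arylsulfatase A, which removes sulfate from sulfatide, did too, at 22.3, 19.2 and 20.7 CPM against 14.6, 30.8 and 15.4 CPM. Its log2 fold change was -0.03 with all libraries and -0.46 without GalTKO 2 (edgeR adjusted p = 0.97 and 0.0737).

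Galc (chr12:98202294-98259459), galactosylceramidase, which releases galactose from the myelin lipid galactosylceramide, differed from Glb1 in that GalTKO 2 was its lowest library. It measured 76.0, 72.9 and 79.4 CPM in wildtype and 54.3, 48.5 and 73.4 CPM in GalTKO, with GalTKO 3 inside the wildtype range. The log2 fold change was -0.37 ± 0.15 (95% interval -0.71 to -0.04; edgeR adjusted p = 0.244). With 1 library left out at a time, Galc passed only without GalTKO 3 (-0.57, edgeR adjusted p = 0.0406), the library inside the wildtype range. Estimates of these fits ran from -0.57 to -0.25, with edgeR adjusted p up to 0.483. Gla, α-galactosidase A, the enzyme deficient in Fabry disease, was at 14.8, 15.5 and 16.0 CPM in wildtype and 13.9, 15.7 and 13.5 CPM in GalTKO, and its interval of -0.37 to 0.16 excluded a 2-fold difference. The remaining enzymes of this group were Neu1, the sialidase that trims sialic acids (-0.16 ± 0.11), and Smpd1, acid sphingomyelinase (-0.01 ± 0.09). Neither passed the test, and the 6 Smpd1 values lay between 40.8 and 46.8 CPM.

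The 2 most abundant members were sphingolipid activators, small proteins that lift lipids out of membranes for the hydrolases. Gm2a (chr11:55098115-55113029), the GM2 ganglioside activator, reached 2635, 3087 and 4317 CPM in wildtype and 1882, 1281 and 3799.6 CPM in GalTKO. The groups overlapped through GalTKO 3, and the log2 fold change of -0.53 ± 0.41 had the widest interval of the 34 (-1.51 to 0.45; edgeR adjusted p = 0.578). Psap (chr10:60277627-60302597), the precursor of the saposins, was at 1967, 1823 and 1823 CPM in wildtype and 1564, 1779 and 1360.2 CPM in GalTKO. No GalTKO library reached a wildtype one, yet -0.26 ± 0.13 missed the threshold (edgeR adjusted p = 0.353). Per kilobase of exon, the scale on which different genes can be compared, Gm2a stood at 811 ± 211 and Psap at 682 ± 30.2 CPM per kb in wildtype (SD, n = 3), and together they made up 52.8% of the summed level of the 34 genes.

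Summed over the 10 sphingolipid genes, levels were 5165, 5486 and 6742 CPM in wildtype and 3844, 3566 and 5612 CPM in GalTKO. The sum is mostly Gm2a and Psap, and it was lowest in GalTKO 2 and highest in wildtype 3. Markers of luteal cells summed to 17326, 18307 and 23268 CPM in wildtype and 11552, 9603 and 16729.8 CPM in GalTKO, with the same libraries lowest and highest. All 10 luteal markers were detected, 9 of the 10 had negative log2 fold changes (median -0.65), and Star, which carries cholesterol into mitochondria for steroid synthesis, passed the test (-1.13, edgeR adjusted p = 0.0263). Star lost its call without wildtype 1, 2 or 3 (edgeR adjusted p = 0.0799, 0.0809 and 0.0906) or GalTKO 1 (0.0808). Their part in the sphingolipid values was not tested.

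**Figure D2:**
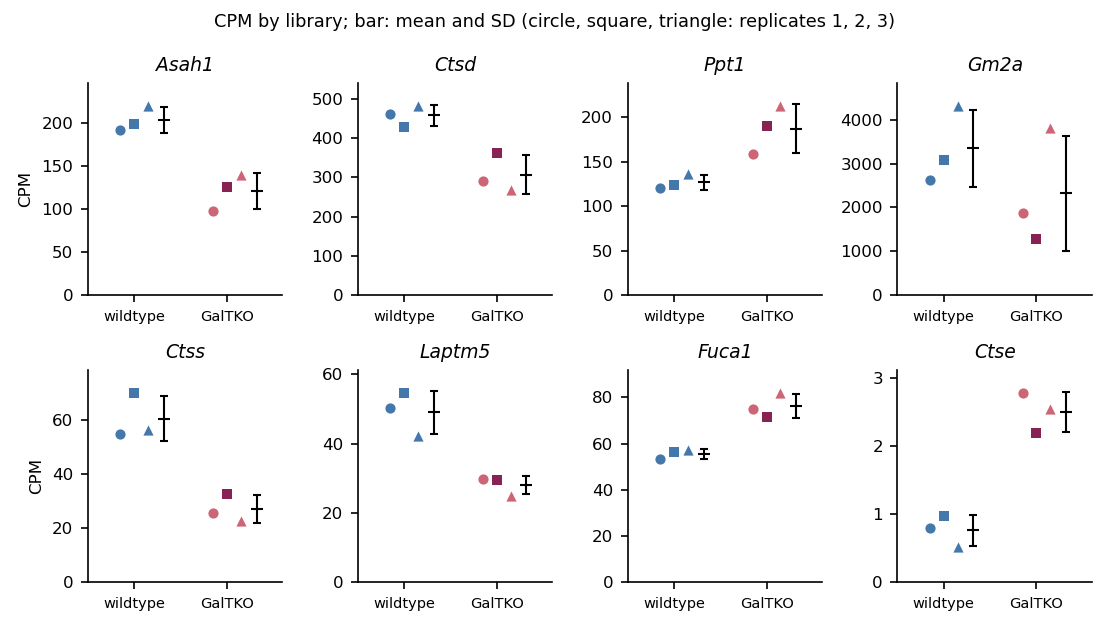
CPM of 8 lysosomal genes in each library, with the group mean and SD (bars, n = 3); circles, squares and triangles are replicates 1, 2 and 3 of each genotype. Asah1, Ctss and Laptm5 were lower and Ppt1, Fuca1 and Ctse higher in all 3 GalTKO libraries, Ctsd was lower in all 3 but missed the threshold, and the Gm2a values overlapped.

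None of the 4 glycosaminoglycan enzymes passed the test (median log2 fold change -0.14). Naglu, α-N-acetylglucosaminidase, which acts on heparan sulfate, was at 98.9, 84.5 and 98.3 CPM in wildtype and 71.1, 101 and 63.2 CPM in GalTKO. Again GalTKO 1 and 3 were below and GalTKO 2 above all wildtype libraries. Its log2 fold change was -0.26 ± 0.17 with all libraries (edgeR adjusted p = 0.498) and -0.48 ± 0.10 without GalTKO 2 (edgeR adjusted p = 0.0446). Naglu passed with no other library left out. Estimates with 1 library left out ran from -0.48 to -0.13, with edgeR adjusted p up to 0.760. Gusb, β-glucuronidase, showed 76.6, 68.5 and 73.8 CPM against 61.8, 94.8 and 53.9 CPM, for -0.06 ± 0.20 with all libraries and -0.33 ± 0.10 without GalTKO 2. Arsb, arylsulfatase B, which acts on dermatan and chondroitin sulfate, measured -0.23 ± 0.15, and Galns, which removes sulfate from keratan sulfate, 0.19 ± 0.18. In Galns the positive value came with 17.3 CPM in GalTKO 2 against 11.1 to 12.9 CPM in the other 5 libraries, and without GalTKO 2 it was -0.04.

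Enzymes of glycogen and N-glycan breakdown were likewise not called. Gaa, acid α-glucosidase, which degrades glycogen, was at 231, 218 and 260.0 CPM in wildtype and 201, 272 and 188 CPM in GalTKO. Manba, β-mannosidase, was at 31.2, 30.8 and 32 CPM against 25.4, 36.4 and 26.7 CPM. In both genes GalTKO 2 was the highest library and the other GalTKO libraries were the lowest. Man2b1, lysosomal α-mannosidase, had a log2 fold change of 0.02 ± 0.08 with an interval of -0.16 to 0.21, the narrowest of the 34.

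Among the 9 proteases the median log2 fold change was -0.00, with 5 negative and 4 positive values and none called. An unadjusted p under 0.05 was reached by 3 (33.3%, beside 17.1% of all tested genes), all lower in GalTKO. Ctsd (chr7:142375911-142388038), cathepsin D, the main aspartic protease of lysosomes, was at 462, 428 and 482 CPM in wildtype and 289.6, 362 and 267 CPM in GalTKO. The groups did not overlap, with means of 457 ± 27.2 and 306 ± 49.6 CPM (SD, n = 3 each). Its log2 fold change of -0.58 ± 0.12 (95% interval -0.86 to -0.29) lay just beyond the threshold (edgeR adjusted p = 0.0544). Ctsd passed with DESeq2 (adjusted p = 0.00157), with limma voom (adjusted p = 0.0197) and with edgeR without GalTKO 2 (-0.72 ± 0.10, adjusted p = 0.00764). It did not pass with any other 1 library left out (edgeR adjusted p up to 0.191, weakest estimate -0.49). Nor did it pass with median-of-ratios or upper-quartile scaling, a filter of 1 CPM in 3 libraries, a replicate block or protein-coding genes only.

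Ctsb (chr14:63122462-63145923), cathepsin B, a cysteine protease, stood at 783, 750.1 and 705 CPM in wildtype and 608, 680.2 and 491 CPM in GalTKO. Ctsh, cathepsin H, an aminopeptidase, was at 49.5, 55.4 and 50.6 CPM against 43.1, 36.5 and 43.1 CPM. Both genes were separated between the groups, and their log2 fold changes of -0.33 ± 0.13 and -0.34 ± 0.10 missed the threshold (edgeR adjusted p = 0.244 and 0.134). Ctsl, cathepsin L, went the other way: it was 650.4, 676 and 594 CPM in wildtype and 696, 603 and 845 CPM in GalTKO, for 0.16 ± 0.13 (edgeR adjusted p = 0.605). In contrast to most members, GalTKO 2 was the lowest GalTKO library for Ctsl and Ctsh.

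The other 5 proteases held their highest value in GalTKO 2. Ctsa, cathepsin A, which also stabilises β-galactosidase and neuraminidase 1 in a complex, was at 211 CPM there and at 146 to 149.7 CPM in the other 5 libraries, and its log2 fold change was 0.19 ± 0.14 with all libraries and -0.00 without GalTKO 2. Ctsc, cathepsin C, which activates granule proteases of immune cells, was at 84.5 CPM in GalTKO 2 and 50.5 to 72.6 CPM elsewhere (0.28 ± 0.17). Tpp1, tripeptidyl peptidase 1, was at 194 CPM against 132 to 156 CPM (-0.00 ± 0.15). Ctsz, cathepsin Z (-0.03 ± 0.11), and Ctsk, cathepsin K, best known from osteoclasts (0.04 ± 0.18), gave similar pictures.

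Ppt1 (ENSMUSG00000028657, chr4:122836242-122859175, plus strand) encodes an enzyme that removes palmitate from S-acylated proteins and is lost in infantile neuronal ceroid lipofuscinosis. Its level was 120.3, 123 and 136 CPM in wildtype and 158, 189 and 213 CPM in GalTKO. Every GalTKO library was above every wildtype library, with means of 127 ± 8.37 and 187 ± 27.4 CPM (SD, n = 3 each). The log2 fold change was 0.56 ± 0.12 (95% interval 0.29 to 0.83; edgeR adjusted p = 0.0488), a rise of 1.48-fold with an interval of 1.22 to 1.78. The call lay at the edge of the threshold. It held without GalTKO 1 (adjusted p = 0.0251) and was lost without any 1 of the other 5 libraries (edgeR adjusted p = 0.179, 0.194 and 0.109 without wildtype 1, 2 and 3, and 0.0568 and 0.104 without GalTKO 2 and 3), with estimates from 0.46 to 0.67. Ppt1 is the one member on the chromosome of the targeted gene, 81.1 Mb from it, and 129 bp of its exons overlap Cap1 on the opposite strand, the strand setting of the counting not being given. Grn, progranulin, which is cleaved into granulins in the lysosome, was at 207, 202 and 190.0 CPM in wildtype and 169, 268 and 179 CPM in GalTKO, again with GalTKO 2 highest (0.04 ± 0.17).

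No membrane protein passed the test. Lamp1 (chr8:13159161-13175338), a major glycoprotein of the lysosomal membrane, was at 575, 601 and 669 CPM in wildtype and 508, 558 and 530.1 CPM in GalTKO. Mcoln1 (chr8:3500457-3515232), a calcium-releasing channel, was at 32.4, 32 and 33.7 CPM against 23.9, 31.9 and 28.3 CPM. Both were below wildtype in every GalTKO library, though Mcoln1 in GalTKO 2 lay within 1 CPM of wildtype, and their log2 fold changes were -0.21 ± 0.10 and -0.22 ± 0.12 (edgeR adjusted p = 0.322 and 0.395). Lamp2, whose splice forms serve in autophagy, had an interval of -0.27 to 0.21. Cd63, a tetraspanin of late endosomes and lysosomes, was at 238 CPM in GalTKO 1 and 156 to 174 CPM in the other 5 libraries (0.21 ± 0.15), and Cln3, a membrane protein mutated in juvenile neuronal ceroid lipofuscinosis, gave 0.23 ± 0.14.

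Tfeb (chr17:47737030-47792419), the regulator, had the lowest level per length of the 34 genes. It was at 14.3, 13.3 and 9.83 CPM in wildtype and 11.2, 13.8 and 9.16 CPM in GalTKO, with overlapping groups and a log2 fold change of -0.13 ± 0.20 (95% interval -0.58 to 0.32; edgeR adjusted p = 0.785). Its protein is regulated largely by its place in the cell, which transcript counts do not measure.

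**Figure D3:**
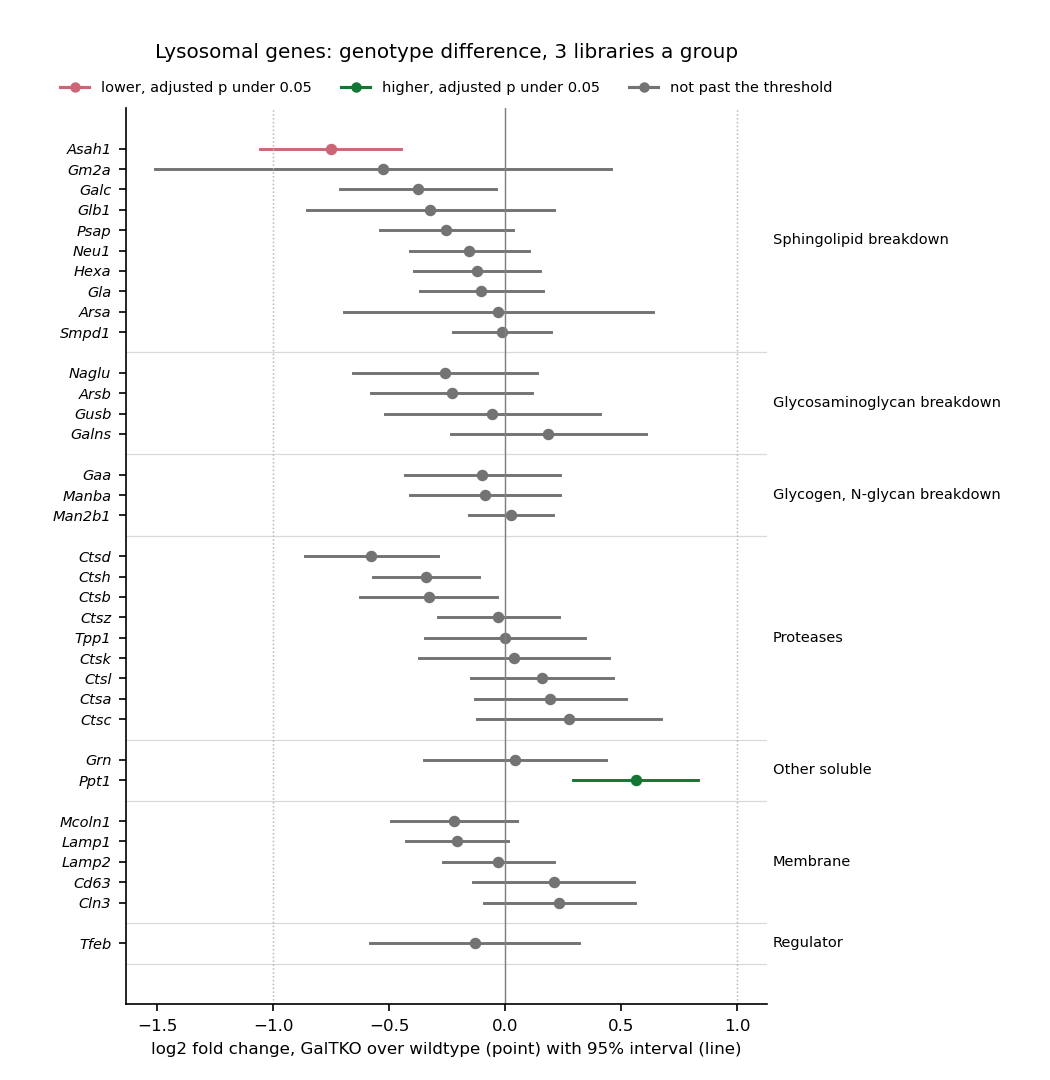
Log2 fold change, GalTKO over wildtype, of each of the 34 lysosomal genes with its 95% interval from the edgeR quasi-likelihood fit, grouped by role. Asah1 lies lowest at -0.75 and Ppt1 highest at 0.56, the 10 sphingolipid genes all lie below 0 in this fit (Smpd1 and Arsa turned positive in others), and the Gm2a interval is the widest.

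The CLEAR element recognised by TFEB contains the hexamer CACGTG, and its extended core is TCACGTGA. Both motifs read the same on either strand, and every TCACGTGA contains a CACGTG. RefSeq promoter windows (GRCm38.p6, from 250 bases before to 50 bases after each start, 300 bases) were matched by symbol for 30 of the 34 genes, and Asah1, Ctsb, Ctsh and Galns had none. CACGTG occurred in a window of 11 genes: Glb1, Gla, Arsa, Naglu, Gaa, Ctsa, Ctsd, Ctsl, Lamp1, Mcoln1 and Cln3. TCACGTGA occurred in 5 of these, Gla, Ctsa, Ctsd, Mcoln1 and Cln3. By window, 31.4% of 35 member windows held CACGTG and 14.3% held TCACGTGA, whereas of all 32851 promoter windows of the same length 7.15% and 0.974% did, and of the 14988 windows of genes tested here 9.43% and 1.66% did. The further lysosomal genes described below had 116 windows, of which 23.3% held CACGTG and 11.2% held TCACGTGA.

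The 4 windows below each hold CACGTG at least 2 times. They belong to a protease near the threshold, the major membrane glycoprotein, an α-galactosidase and a calcium channel. Windows of Ctsa and Cln3 also hold CACGTG 2 times and are not printed. The 4 printed genes had negative log2 fold changes, whereas those of Ctsa (0.19) and Cln3 (0.23) were positive. Each printed window is written 5′ to 3′ on the strand of its gene, in lower case, with every CACGTG in capitals. Ctsd is chr7:142387778-142388077 (minus strand), Lamp1 chr8:13158911-13159210 (plus strand), Gla chrX:134600956-134601255 (minus strand) and Mcoln1 chr8:3500269-3500568 (plus strand).
Ctsd: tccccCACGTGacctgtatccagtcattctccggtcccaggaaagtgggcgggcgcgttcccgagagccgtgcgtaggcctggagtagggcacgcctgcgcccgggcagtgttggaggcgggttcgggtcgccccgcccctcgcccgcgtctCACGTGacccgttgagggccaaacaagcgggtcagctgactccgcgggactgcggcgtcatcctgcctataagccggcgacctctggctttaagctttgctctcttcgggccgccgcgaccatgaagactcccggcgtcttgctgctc
Lamp1: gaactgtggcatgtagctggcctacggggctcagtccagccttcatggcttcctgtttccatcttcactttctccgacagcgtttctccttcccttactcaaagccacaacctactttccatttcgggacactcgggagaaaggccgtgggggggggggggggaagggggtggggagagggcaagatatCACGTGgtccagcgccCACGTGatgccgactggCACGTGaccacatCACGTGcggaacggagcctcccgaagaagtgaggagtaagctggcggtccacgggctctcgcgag
Gla: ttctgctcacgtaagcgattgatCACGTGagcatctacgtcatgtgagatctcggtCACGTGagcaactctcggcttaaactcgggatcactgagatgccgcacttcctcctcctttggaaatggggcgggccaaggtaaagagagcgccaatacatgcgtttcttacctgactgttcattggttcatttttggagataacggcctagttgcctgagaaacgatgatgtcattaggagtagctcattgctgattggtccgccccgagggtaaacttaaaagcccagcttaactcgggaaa
Mcoln1: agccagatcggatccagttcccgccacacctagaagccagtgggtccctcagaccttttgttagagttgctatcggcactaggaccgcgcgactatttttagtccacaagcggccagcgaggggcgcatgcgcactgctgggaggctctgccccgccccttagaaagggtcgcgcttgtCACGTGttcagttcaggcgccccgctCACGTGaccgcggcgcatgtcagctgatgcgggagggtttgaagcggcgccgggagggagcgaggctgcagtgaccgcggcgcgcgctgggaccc

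In Ctsd the matches began 245 and 98 bases before the start, in Gla 227 and 194, in Mcoln1 71 and 45. Lamp1 held 4, which began 61, 45, 28 and 15 bases before the start and none of which lay within TCACGTGA. A match describes letters in a window and does not show that a factor binds there. The 11 members with CACGTG had a median log2 fold change of -0.10 with 8 negative values, and the 19 members with a window but no match had a median of -0.03 with 13 negative values. Members with a match included Ctsd (-0.58) as well as Cln3 (0.23) and Ctsl (0.16), and Ppt1 had a window without a match.

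Most members were higher in GalTKO 2 than in GalTKO 1 and 3. GalTKO 2 was the highest of the 3 GalTKO libraries for 27 of 34 genes, beside 35.4% of all tested genes, and the highest of all 6 libraries for 17, beside 21.4% of all tested genes. It was above every wildtype library for 18 members (34.6% of all tested genes) and below every one for 9 (32% of all tested genes). By contrast GalTKO 1 was below all wildtype libraries for 24 members (32.3% of all tested genes) and GalTKO 3 for 25 (33.1%), and both were below for 21 members, beside 20% of all tested genes. For 11 genes, namely Glb1, Hexa, Arsa, Gusb, Naglu, Gaa, Manba, Ctsz, Tpp1, Grn and Lamp2, GalTKO 1 and 3 lay below the wildtype range and GalTKO 2 above it. The median member deviated from the wildtype mean by a log2 ratio of -0.24, 0.12 and -0.20 in GalTKO 1, 2 and 3.

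The spread of these genes was wider among GalTKO libraries. The coefficient of variation had a median of 5.70% over the 34 genes in wildtype and 17.3% in GalTKO, and it was larger in GalTKO for 29 genes. Over all tested genes the medians were 10.04% and 14.2%, and 64.8% of genes had the larger value in GalTKO, so a wider GalTKO spread was also seen across the transcriptome. Among the 34 genes the highest coefficient was 26% in wildtype and 56.7% in GalTKO, both for Gm2a.

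Without GalTKO 2, 29 log2 fold changes were negative and 5 positive, with a median of -0.25. The fit then called 4 members, Glb1, Asah1, Naglu and Ctsd, all lower in GalTKO, beside 4.26% of 17410 tested genes called in either direction and 2.43% called lower. An unadjusted p under 0.05 was reached by 21 members, 18 of them lower and 3 higher (Ctsl, Ppt1 and Cd63), beside 20.9% of all tested genes. The estimate moved down for 29 genes, the exceptions being Galc, Gm2a, Ctsh, Ctsl and Cd63, and changed sign for Galns, Man2b1, Ctsa, Ctsk and Grn. This fit rests on 2 GalTKO libraries, and that library was set aside with its values known. Leaving out another GalTKO library moved the signs the other way, to 18 negative and 16 positive without GalTKO 1 and to 17 of each without GalTKO 3.

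**Figure D4:**
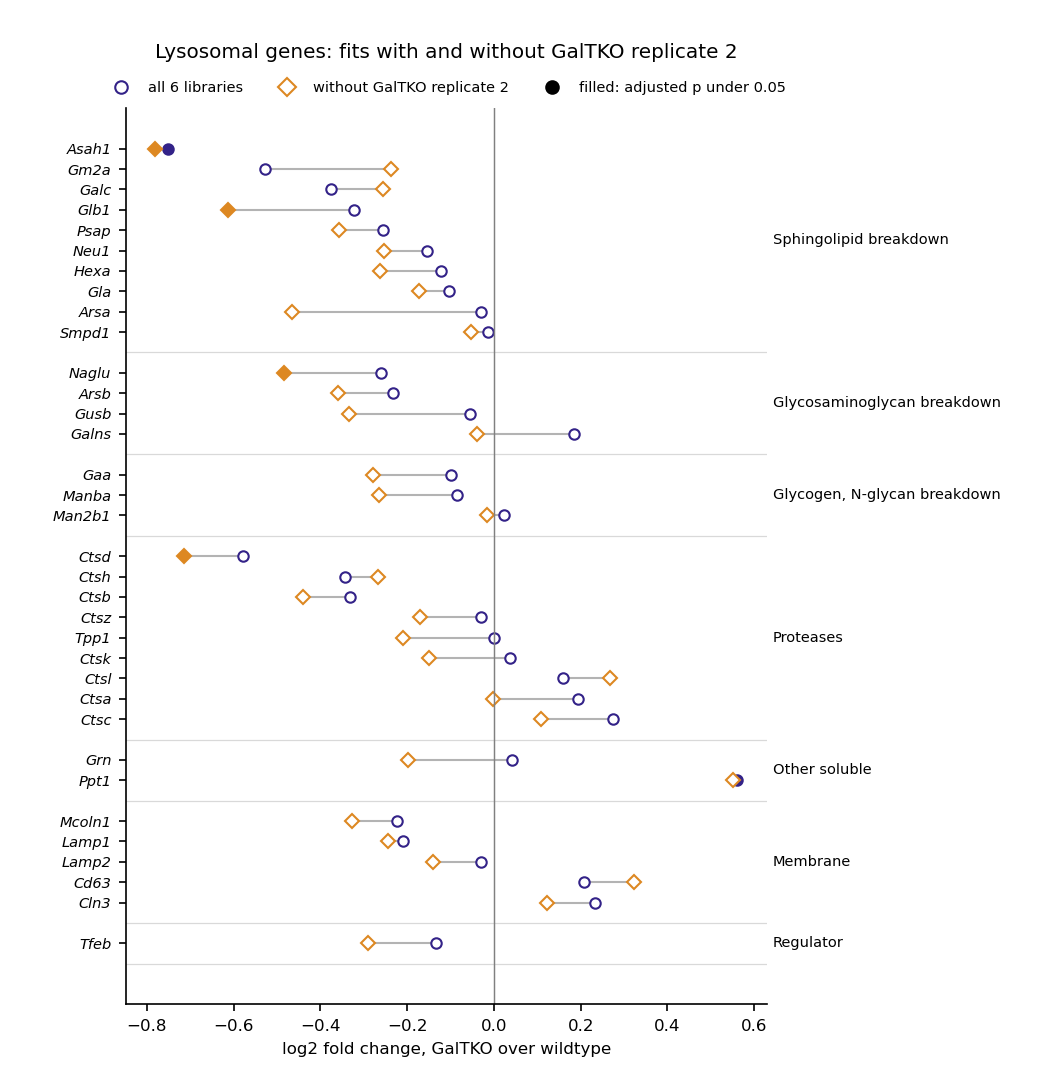
Log2 fold change of the 34 lysosomal genes with all 6 libraries and without GalTKO 2. For 29 genes the value without that library is the lower one, and the median goes from -0.09 to -0.25.

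Several marker sums moved with GalTKO 2 in the same direction as these members. Stromal markers (collagens, Pdgfra, Dcn and Lum) summed to 3277, 5356 and 2770.2 CPM in GalTKO 1, 2 and 3 against 3785 to 4072 CPM in wildtype. Surface epithelium markers summed to 128, 182 and 110.4 CPM against 112 to 117 CPM, and smooth muscle markers to 1459, 1704 and 1063 CPM against 1123 to 1405 CPM. Luteal markers, as given above, went the opposite way and were lowest in GalTKO 2. Gene by gene, all 7 surface epithelium markers had positive log2 fold changes (median 0.28). For 4 of them all GalTKO libraries lay above wildtype, beside 11.8% of all tested genes. Krt8, 1 of the 7, passed (0.60, edgeR adjusted p = 0.0440), a call lost without any library but GalTKO 2 (up to 0.165). The part of these cell types in the lysosomal values was not tested.

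A further 122 lysosomal genes were listed by function, also with earlier results of these data known. Of these, 114 were tested, and 4 (3.51%, beside 2.55% of all tested genes) passed: Ctss and Laptm5 fell, and Fuca1 and Ctse rose. Their median log2 fold change was -0.09, with 82 negative and 32 positive values, and 20 genes had all GalTKO libraries below wildtype and 3 all above, beside 12% and 11.8% of all tested genes. Ctss (chr3:95526786-95556403), cathepsin S, which trims the invariant chain in antigen-presenting cells, was at 55.1, 70.2 and 56.6 CPM in wildtype and 25.9, 32.9 and 22.7 CPM in GalTKO. The groups were well apart, with a fall to 0.449 of wildtype (log2 fold change -1.16 ± 0.16, edgeR adjusted p = 0.00866) that passed without each library in turn. Laptm5, a lysosomal membrane protein of blood cells, was at 50.2, 54.6 and 42.3 CPM against 29.7, 29.5 and 24.9 CPM (-0.80 ± 0.12, edgeR adjusted p = 0.0154), and the call was lost without wildtype 1 (0.0725) or wildtype 2 (0.0788).

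Macrophage markers were lower in the same libraries as Ctss and Laptm5. All 16 were detected, 15 had negative log2 fold changes (median -0.62), and 5 passed the test, all lower: Mpeg1, a pore-forming protein (-0.90 ± 0.10), Csf1r, the receptor for colony-stimulating factor 1 (-0.58 ± 0.10), Lyz2, lysozyme (-0.65 ± 0.11), C1qb, of complement C1q (-0.65 ± 0.12), and Cd163, the haemoglobin scavenger receptor (-1.90 ± 0.37), with edgeR adjusted p from 0.00307 to 0.0408. Over all tested genes, 46.6% were negative, 2.55% were called and 1.43% were called lower. Mpeg1 passed with any 1 library left out. Csf1r lost its call without wildtype 1, 2 or 3 or GalTKO 1, Lyz2 and C1qb without wildtype 1 or 2 or GalTKO 1 or 3, and Cd163 without any library but GalTKO 2 (highest edgeR adjusted p 0.112, 0.122, 0.117 and 0.148). Their sum was 532, 547 and 467 CPM in wildtype and 341, 342 and 317 CPM in GalTKO, with no overlap and with GalTKO 2 level with GalTKO 1. Among the 34 members, 7 were below wildtype in all 3 GalTKO libraries (Asah1, Ctsb, Ctsd, Ctsh, Psap, Lamp1 and Mcoln1), beside 12% of all tested genes. Endothelial markers showed no overlap either: they summed to 446, 521 and 576 CPM in wildtype and 363, 404 and 382 CPM in GalTKO, 5 of 5 had negative log2 fold changes, and 2 passed, Kdr, a receptor for VEGF (-0.68, edgeR adjusted p = 0.00769, kept with any 1 library left out), and Pecam1, an adhesion molecule (-0.60, edgeR adjusted p = 0.0441, lost without any library but wildtype 1, up to 0.142). Granulosa markers went both ways, with 5 of 10 negative and 2 called. Amh was higher and Nr5a2 lower (0.76 and -0.64, edgeR adjusted p = 0.0214 and 0.0425). Neither call held with every library left out in turn (edgeR adjusted p up to 0.0697 and 0.135). The part of macrophage or endothelial RNA in the lysosomal values was not tested.

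Fuca1 (chr4:135920735-135940311), α-L-fucosidase, which removes fucose from glycans, was at 53.2, 56.4 and 57.3 CPM in wildtype and 75.0, 71.7 and 81.9 CPM in GalTKO. The groups did not overlap, and the rise of 1.37-fold (0.45 ± 0.08) had an edgeR adjusted p of 0.0332. Like Ppt1, Fuca1 lies on the chromosome of the targeted gene Galt. Ctse, cathepsin E, an aspartic protease of endosomes, rose from 0.8, 0.973 and 0.52 CPM to 2.79, 2.2 and 2.55 CPM (1.71 ± 0.30, edgeR adjusted p = 0.0282), a low level in both groups. Each of these calls was lost without 5 of the 6 libraries taken 1 at a time (edgeR adjusted p up to 0.145 for Fuca1 and 0.113 for Ctse).

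Of the 39 further hydrolases tested, 26 were negative. The 22 membrane proteins tested had 17 negative values and 1 call, Laptm5, with Cd68, a macrophage glycoprotein, at -0.72 ± 0.25 (edgeR adjusted p = 0.218) and Abca2, a lipid transporter, at -0.53 ± 0.21 (edgeR adjusted p = 0.252).

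The proton pump had 18 negative values among 21 subunits and accessory genes tested, with a median of -0.14, none called and 7 with an unadjusted p under 0.05. Those 7 are 33.3% of the 21, beside 17.1% of all tested genes, of which 46.6% were negative. Atp6v0d2, a subunit isoform prominent in osteoclasts and macrophages, was at 11.5, 16.5 and 10.3 CPM in wildtype and 5.53, 6.56 and 2.97 CPM in GalTKO. The groups were apart, with -1.34 ± 0.30 (edgeR adjusted p = 0.0699) and, without GalTKO 2, -1.57 (edgeR adjusted p = 0.0404). Among 12 genes of mannose 6-phosphate tagging and sorting, 8 were negative and none was called, and Sort1, the sorting receptor sortilin, had the smallest p (-0.32 ± 0.10, edgeR adjusted p = 0.151). The 20 genes of the TFEB family and its mTORC1 control gave 13 negative values, a median of -0.04 and no call, with Fnip2, a partner of folliculin, at -0.46 ± 0.11 (edgeR adjusted p = 0.0764).

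**Figure D5:**
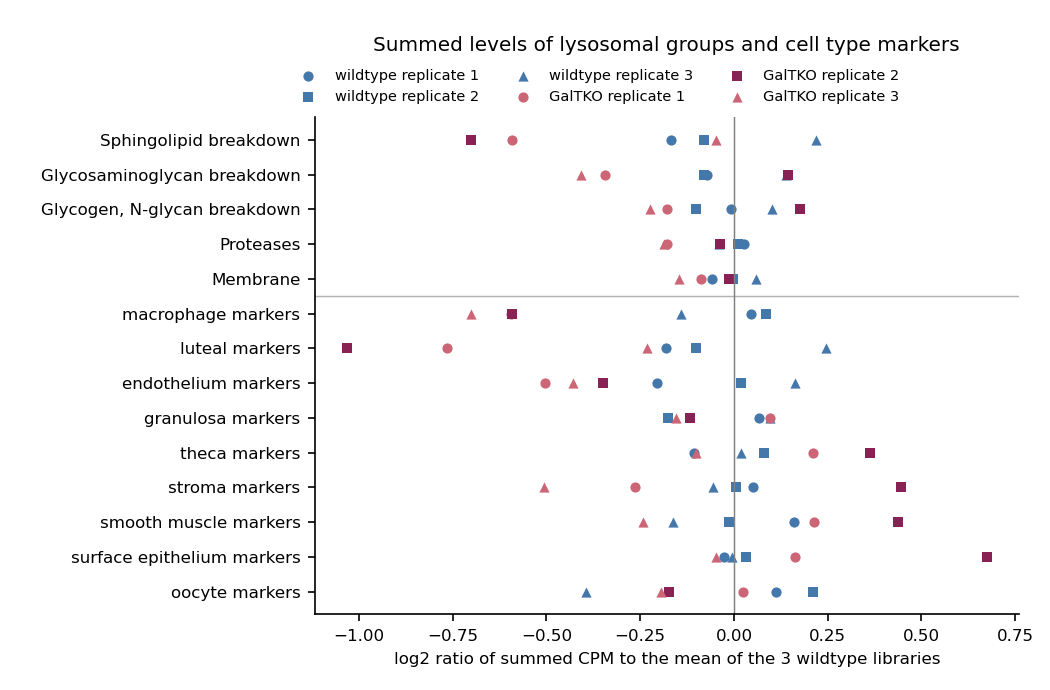
Summed CPM of 5 role groups of the lysosomal genes and of 9 cell type marker lists in each library, as the log2 ratio to the wildtype mean. The macrophage sum lies below wildtype in all 3 GalTKO libraries, and the stromal sum is highest and the luteal sum lowest in GalTKO 2.

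Levels of the members spanned a wide range. Per kilobase of exon, the highest wildtype mean (Gm2a) was 368 times the lowest (Tfeb, 2.2 ± 0.4 CPM per kb), and after Gm2a and Psap came Lamp1 (230 ± 18.1), Ctsd (194 ± 11.6) and Ctsb (123 ± 6.5). Asah1 was at 59.9 ± 4.4 CPM per kb in wildtype and 35.5 ± 6.3 in GalTKO (SD, n = 3 each). Of the 33 neighbouring pairs in the wildtype order, 16 were apart by more than the sum of their SDs, and the top pair was not. In GalTKO the order of the top pair was reversed, Psap at 571 ± 76.4 and Gm2a at 562 ± 319, a difference within their SDs.

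The precision of the fit bounds the members that were not called. For 31 of these 32 genes the 95% interval excluded a 2-fold difference in either direction, the exception being Gm2a. Exons of some members overlap those of another gene on the opposite strand: Ctsb shares 774 bp with Fdft1 (12.8% of its exon length) and Ctsa shares 495 bp with Pltp (10.5%). Without the strand setting, reads from such overlaps cannot be assigned with certainty. Other exons overlap a gene on the same strand, which a known strand setting would not resolve. Ctsd shares 808 bp with Gm49369 (34.4% of its exon length), Ctsl 395 bp with Gm49230 (6.1%) and Glb1 165 bp with Tmppe (5.5%). How reads there were counted is not given, so the level of Ctsd per kilobase and its place below Lamp1 are uncertain.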

How the data were processed

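Raw read counts by Ensembl gene, in 1 table the authors deposited, were used for 6 ovary libraries. Per the labels' protocols, total RNA was depleted of ribosomal RNA and made into stranded libraries. STAR 2.7.6a, featureCounts 1.6.3, cutadapt 1.16, DESeq2 1.30.1 and the build GRCm38 are named in the submitters' processing notes. For settings, annotation release and strand handling, the sources used here give nothing. Groups came from sample titles. No pair of replicates agreed within sampling noise (chi-square per degree of freedom at least 12.0).

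Counts were fitted in R 4.3.3 with edgeR 4.0.16: filterByExpr (minimum count 10, minimum total 15), TMM scaling, and a robust quasi-likelihood test of genotype over all 6 libraries. Biological variation had a common coefficient of 17.4%. Two-sided p-values were Benjamini-Hochberg adjusted over 16957 genes, and genes under 0.05 were called. The SE is the size of the log2 fold change divided by the square root of F, and intervals (95%) use the fit's degrees of freedom. CPM uses TMM-scaled totals, and CPM per kb the union exon length of GENCODE M21, which matched 55227 of 55487 identifiers. Unmatched identifiers held 0.00307% of counts. The fit was tested on simulated counts.

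Alternatives were scaling by median of ratios or by upper quartile, DESeq2 1.42.0, limma 3.58.1 voom with quality weights, no filter, a filter of 1 CPM in 3 libraries, protein-coding genes, a replicate block, an adjusted p of 0.1 and each library left out. All members were named, with called genes and up to 4 of smallest p from each further lysosomal list, called macrophage markers and up to 2 markers of other cell types. Not every gene the rule allows is described. Members and lists were chosen with earlier results of these data known.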

Additional observations from a re-analysis of the deposited data

How the results depend on the processing

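Over all genes, 433 passed in the fit reported, 1044 with DESeq2, 877 without a filter, 260 among protein-coding genes and 761 at an adjusted p of 0.1. Of the 34 members, 2 passed, and 1 (Asah1) with median-of-ratios scaling, with a filter of 1 CPM in 3 libraries or among protein-coding genes, where the edgeR adjusted p of Ppt1 was 0.0522, 0.0530 and 0.0623. Asah1, Ctsd and Ppt1 passed with DESeq2, voom or no filter. Of the further lysosomal genes 4 passed, 8 with DESeq2 and 7 without a filter. Members close to 0 changed sign: Smpd1 (0.0087) and Tpp1 (0.021) with upper-quartile scaling, Smpd1 (0.0023), Ctsk (-0.085) and Grn (-0.10) with voom, and Tpp1 with 1 CPM (0.0033) and protein-coding genes (0.0033). Leaving out 1 library at a time gave 165 to 742 genes, 0 to 4 members, a member median of -0.25 (without GalTKO 2) to 0.00055 (without GalTKO 3) and 1 to 9 further lysosomal genes. No member passed without wildtype 1, 2 or 3. Signs of log2 fold changes then varied for Arsa (-0.46 to 0.16), Man2b1 (-0.022 to 0.050), Tpp1 (-0.21 to 0.094), Smpd1 (-0.054 to 0.046), Ctsk (-0.15 to 0.15), Gusb (-0.33 to 0.10), Manba (-0.27 to 0.011), Ctsz (-0.17 to 0.035), Lamp2 (-0.14 to 0.025), Galns (-0.039 to 0.31), Ctsa (-0.0011 to 0.28), Grn (-0.20 to 0.16) and Gaa (-0.28 to 0.0021). The cause of these shifts was not tested beyond fewer samples or genes in the fit. Samples sharing a replicate number were not treated as paired in the fit reported. Deviations of same-numbered libraries correlated at 0.133, -0.044 and 0.107 for replicates 1, 2 and 3, beside at most 0.038 for unlike numbers. Not every sample correlated best with its own number, and these values do not settle whether samples were paired. With the replicate block 321 genes, 2 members and 5 further lysosomal genes passed, and Fuca1, Ctse, Csf1r and Cd163 did not (edgeR adjusted p = 0.0618, 0.0699, 0.0595 and 0.0916). Nor did Nr5a2 (0.0986) or Krt8 (0.0512) pass with it. Cd163 (0.0517), Pecam1 (0.0579), Nr5a2 (0.0537) and Krt8 (0.0505) did not pass among protein-coding genes, nor Pecam1 with upper-quartile scaling (0.0501) or voom (0.0570). Every member held at least 176 counts in each library, whereas the call of Ctse rests on a wildtype mean of 0.764 CPM.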
